A study of Mus musculus with 15 samples.

Results

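Intergenic long noncoding RNA (lincRNA) genes were examined for 5-hydroxymethylcytosine (5hmC) and unmodified cytosine at CG dinucleotides in mouse embryonic stem cells. The genes were those of type lincRNA in GENCODE M21 on the 19 autosomes that neither overlapped a protein-coding gene nor lay within 2 kb of one, which gave 4247 of 5209 autosomal lincRNA genes and of 51229 autosomal genes of any type. DNA of the E14TG2a embryonic stem cell line, grown on gelatin with LIF and fetal bovine serum, was labeled with BGT, a glucosyltransferase that tags 5hmC, and read by hmTOP-seq in 2 technical replicates of 500, of 50 and of 5 ng. For each input 2 control libraries were made without BGT. Unmodified CG (uCG) was read by uTOP-seq at 300 ng with 3 replicates. All libraries came from this 1 line with no other treatment, so the p-values below measure the technical spread between libraries. No RNA was measured, and the identity of the cells was not checked against marker genes.

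LincRNA genes are transcribed like protein-coding genes, with promoters, exons and introns, but their RNAs are not translated. Many are expressed weakly and in few tissues, and several act in the nucleus in embryonic stem cells, in dosage control or in imprinting. 5hmC is made from 5-methylcytosine by the TET dioxygenases, which are abundant in these cells, and is usually found in bodies of active genes and at enhancers, whereas CG-rich promoters are mostly unmodified. Coverage is given here as reads per CG in a region divided by reads per CG over all autosomal CGs of the same library, so 1 is the genome average, and a value for 5hmC and one for uCG are each relative to their own assay and do not give the modified share of a CG.

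The bases around the annotated start of 6 lincRNA genes are shown as examples. They go from starts with uCG reads and almost no 5hmC reads to starts rich in 5hmC. Each run spans 100 bases before the start to 99 bases after it, 5′ to 3′ on the strand of the gene in GRCm38, with CG dinucleotides in capitals. Malat1 is at chr19:5802573-5802772, Gm11527 at chr11:95859075-95859274, Neat1 at chr19:5845379-5845578, H19 at chr7:142578044-142578243, Hotair at chr15:102947631-102947830 and Gm2044 at chr7:139957940-139958139, all on the minus strand.
Malat1: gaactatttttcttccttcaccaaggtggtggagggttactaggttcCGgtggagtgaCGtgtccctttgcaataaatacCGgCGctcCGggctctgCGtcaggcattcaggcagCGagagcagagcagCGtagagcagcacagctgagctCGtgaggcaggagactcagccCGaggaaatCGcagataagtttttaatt
Gm11527: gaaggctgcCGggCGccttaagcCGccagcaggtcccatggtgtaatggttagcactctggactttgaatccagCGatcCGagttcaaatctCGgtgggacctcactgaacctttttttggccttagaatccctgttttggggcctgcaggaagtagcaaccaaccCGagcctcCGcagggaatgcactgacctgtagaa
Neat1: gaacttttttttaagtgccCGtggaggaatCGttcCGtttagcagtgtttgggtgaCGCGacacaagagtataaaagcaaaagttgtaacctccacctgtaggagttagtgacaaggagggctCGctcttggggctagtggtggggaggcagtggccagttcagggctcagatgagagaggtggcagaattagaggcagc
H19: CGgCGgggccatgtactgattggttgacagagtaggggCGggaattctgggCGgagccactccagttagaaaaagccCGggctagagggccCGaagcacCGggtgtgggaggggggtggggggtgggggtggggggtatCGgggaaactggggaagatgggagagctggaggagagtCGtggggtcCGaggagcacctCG
Hotair: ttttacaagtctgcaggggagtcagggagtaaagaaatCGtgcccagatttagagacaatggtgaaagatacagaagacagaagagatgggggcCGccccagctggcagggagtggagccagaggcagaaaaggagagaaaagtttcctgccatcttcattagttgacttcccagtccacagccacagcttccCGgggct
Gm2044: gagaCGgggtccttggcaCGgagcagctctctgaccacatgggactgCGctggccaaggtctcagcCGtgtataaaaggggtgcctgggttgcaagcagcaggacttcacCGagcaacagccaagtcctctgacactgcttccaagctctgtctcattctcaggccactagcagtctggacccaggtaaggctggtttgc

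The 11 CGs shown for Malat1 held 0 and 3 reads of 5hmC in the 500-ng replicates and 47, 36 and 27 uCG reads. The 8 CGs of Gm11527 had 0 reads of 5hmC in all 6 hmTOP-seq libraries and 54, 44 and 34 uCG reads. The 6 CGs of Neat1 likewise had 0 reads in both 500-ng replicates, 9 in 1 replicate at 50 ng, and 57, 25 and 31 uCG reads. These 3 starts carried uCG reads and almost no 5hmC reads. The 11 CGs of H19 had 15 and 18 reads of 5hmC and 11, 7 and 1 uCG reads, and only 3 of the 11 were read in both 500-ng replicates. The 3 CGs of Hotair had 30 and 31 reads of 5hmC and 12, 32 and 10 uCG reads. The 5 CGs of Gm2044 had 57 and 58 reads of 5hmC and 9, 17 and 18 uCG reads, and every one of the 5 was read in both 500-ng replicates. These 5hmC reads are those at 500 ng. In the 50-ng replicates H19 had 4 and 6, Hotair 20 and 30 and Gm2044 9 and 17. In the 5-ng replicates they had 0 and 15, 29 and 0, and 2 and 24, so the lower inputs varied widely at these few CGs.

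Autosomal reads numbered 14713053 to 32159559 per hmTOP-seq library and 19816864 to 27984728 per uTOP-seq library. Control libraries held 3386 to 9946 autosomal reads, of which 118 to 355 lay in lincRNA gene bodies, against 499209 to 1056804 in the labeled libraries. The controls placed 2.50% (95% exact binomial interval 2.07 to 2.98) to 4.25% (3.60 to 4.98) of their reads in these bodies, the labeled libraries 3.29 to 3.43% and the CGs themselves 3.56%. The intervals cover counting error only. Of the 4247 genes, 3 on chromosome 17 (Gm26917, Gm42418 and AY036118, chr17:39843013-39848788) lie at a copy of the 45S ribosomal RNA unit. Gm26917 had a relative coverage of 43.2 and 42.3 in 5hmC and of 127, 140 and 132 in uCG, Gm42418 of 38.9 and 36.4 and of 92.8, 102 and 97.3, and AY036118 of 35.8 and 33.6 and of 77.7, 87.6 and 84.1. Reads of other copies of this repeated unit cannot be told apart from reads of this one, and pooled values are therefore given also without these 3 genes.

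The lincRNA genes had a median length of 8.06 kb and 3 exons, against 17.6 kb and 7 exons for 20807 autosomal protein-coding genes. A median of 78 CGs lay in their bodies and 16 in the TSS window, from 1 kb upstream to 0.5 kb downstream of the start, against 232 and 50 in protein-coding genes. Over 60 CGs were found in the TSS window of 2.10% of lincRNA genes and of 41.5% of protein-coding genes. Of their body CGs 23.7% lay in soft-masked repeat sequence, against 16.95% in protein-coding genes. Start regions dense in CGs were thus rare among lincRNA genes. 5 lincRNA genes had 0 CGs in the body and enter only through their TSS window and downstream CGs.

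Pooled over CGs, 5hmC was above the genome average at lincRNA starts and exons and below it in their introns. In the TSS window relative coverage was 1.67 ± 0.0015 (SD, n = 2) at 500 ng, and 1.51 ± 0.0056 without the 3 genes at the 45S unit. Exons outside the window had 1.56 ± 0.0078, or 1.39 ± 0.011 without these genes, introns 0.812 ± 0.0054 and the 2 kb downstream 1.17 ± 0.0089. The body as a whole had 0.927 ± 0.0050, or 0.897 ± 0.0058 without the 3 genes, against 0.492 ± 0.0037 at intergenic CGs, those 50 kb or more away from protein-coding genes. The median gene was lower, at 1.06 for the TSS window of 3312 lincRNA genes with at least 10 CGs there (0.803 over all lincRNA genes) and at 0.976 for exons of 2009 genes with at least 10 exonic CGs. For introns it was 0.670. Pooled bodies of lincRNA genes lay above intergenic CGs by 0.91 in log2 (0.86 without the 3 genes) and in 19 of 19 autosomes. The sets differ in distance, since body CGs can lie nearer than 50 kb to a protein-coding gene. In matched distance ranges the excess was 1.32- to 1.47-fold without the 3 genes, as given below.

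Protein-coding genes had the opposite order at the start. Their TSS window had 0.603 ± 0.0043 of 5hmC, so the lincRNA window was 2.78-fold higher, or 2.51-fold higher without the 3 genes, and higher in 19 of 19 autosomes. Outside the window lincRNA genes had less 5hmC than protein-coding genes, which had 2.01 ± 0.030 in exons, 1.12 ± 0.0019 in introns and 1.47 ± 0.00082 downstream. The log2 ratio of lincRNA to protein-coding genes was -0.36 in exons (-0.53 without the 3 genes), -0.47 in introns and -0.33 downstream, and each was larger than its spread over replicates. Counting the exonic CGs of the TSS window as exons turned the exon ratio to 0.066 with the 3 genes, but left it at -0.18 without them. The 50-ng and 5-ng libraries gave 1.67 ± 0.0015 and 1.66 ± 0.019 in the lincRNA TSS window, and 0.586 ± 0.0018 and 0.572 ± 0.0014 in that of protein-coding genes. Input therefore moved these values little beside the gap between the gene classes.

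In uCG the lincRNA TSS window had 1.79 ± 0.022 (SD, n = 3), or 1.40 ± 0.0068 without the 3 genes, against 2.20 ± 0.036 in protein-coding genes. Here the lincRNA window was lower in 18 of 19 autosomes, and in 19 of 19 without the 3 genes. The log2 ratio was -0.30 pooled and -1.20 between the medians over genes with at least 5 CGs in the window. Exons had 1.75 ± 0.029 with the 3 genes and 1.13 ± 0.0023 without them, against 1.502 ± 0.0048 in protein-coding exons, so the direction of this difference rests on the 3 genes at the 45S unit. Introns had 0.776 ± 0.0029 against 1.04 ± 0.0037, and intergenic CGs 0.579 ± 0.0014. Relative to protein-coding genes, the pooled lincRNA starts were thus higher in 5hmC and lower in uCG. This pattern was not shared by all starts. With under 20 CGs in the window, the class of most lincRNA genes, they were lower in both marks, as given below.

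**Figure D1:**
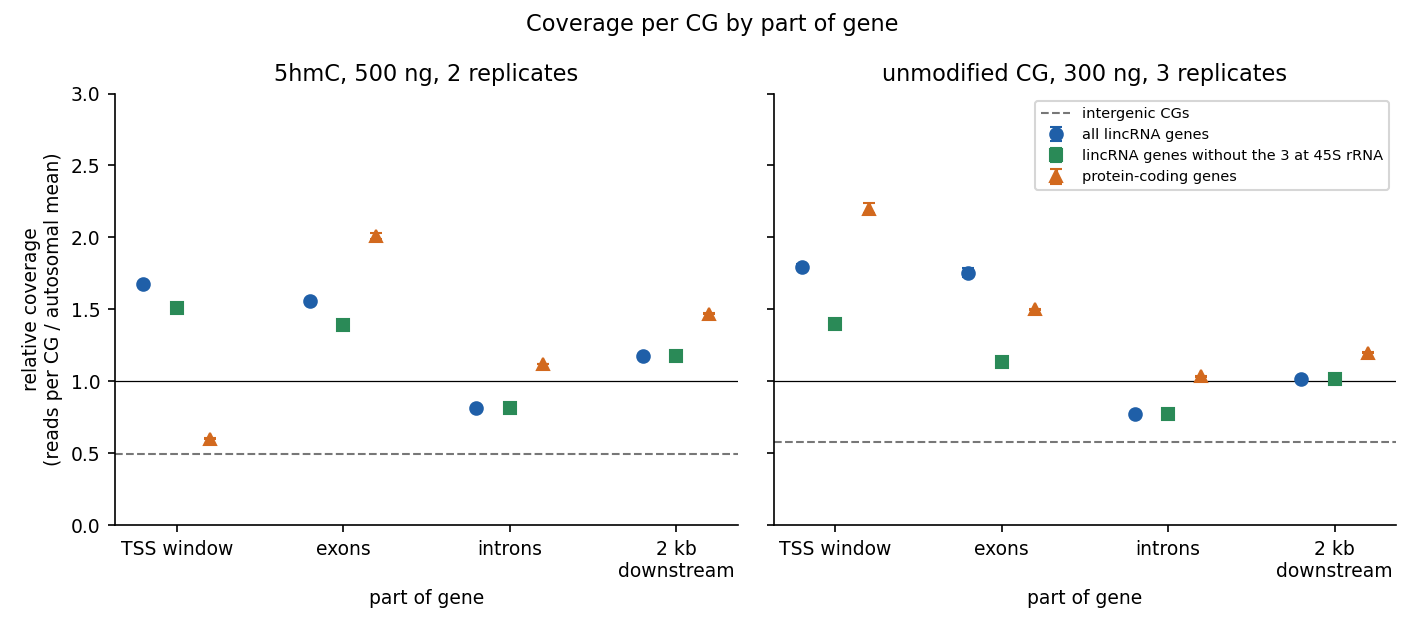
Relative coverage (reads per CG divided by the autosomal mean, y axis) in 4 parts of the gene for all lincRNA genes (blue circles), lincRNA genes without the 3 at the 45S unit (green squares) and protein-coding genes (orange triangles), with bars from the lowest to the highest replicate and a dashed line for intergenic CGs. In 5hmC the lincRNA TSS window lies at 1.67 and the protein-coding one at 0.603, and in uCG the order is turned.

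The gap at the start differed with the number of CGs in the TSS window, which is a property of the sequence and not of the reads. The 2722 lincRNA genes with under 20 CGs there had a 5hmC coverage of 1.10 ± 0.0024 in the window, slightly below the 1.18 ± 0.015 in 5747 protein-coding genes of the same class. The 1435 lincRNA genes with 20 to 60 CGs, leaving out 1 gene at the 45S unit, had 2.04 ± 0.0063 against 1.41 ± 0.015 in 6425 protein-coding genes. The 87 with over 60 CGs, leaving out the other 2, had 0.372 ± 0.012 against 0.282 ± 0.0022 in 8635 protein-coding genes. The middle class thus had the highest 5hmC at lincRNA starts, and the CG-dense class had little in both kinds of gene. In uCG the 3 classes of lincRNA genes had 0.964 ± 0.0044, 1.62 ± 0.011 and 2.14 ± 0.042 and those of protein-coding genes 1.04 ± 0.00054, 2.63 ± 0.037 and 2.15 ± 0.040. In the middle class lincRNA windows were therefore above protein-coding ones in 5hmC and below them in uCG, while in the class over 60 CGs the uCG difference was within the replicate SD.

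In bins of 250 bp along 5 kb on each side of the start, the middle class of lincRNA genes had its 5hmC maximum of 2.29 in the bin centred 125 bp after the start and 1.30 at 4875 bp before it. Protein-coding genes of that class had 1.25 in the bin 125 bp after the start and a maximum of 1.86 in the bin 625 bp before it. LincRNA genes of the CG-dense class had 0.153 in the bin 125 bp before the start and 0.211 in the bin after it, and protein-coding genes 0.133 and 0.0766. With under 20 CGs, the class of most lincRNA genes, both kinds of gene had their maximum in the bin 125 bp after the start, at 1.29 in lincRNA genes and 1.61 in protein-coding genes. The start of the lincRNA genes was thus a 5hmC maximum in the classes up to 60 CGs and a minimum in the CG-dense class, and protein-coding genes differed in the middle class.

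**Figure D2:**
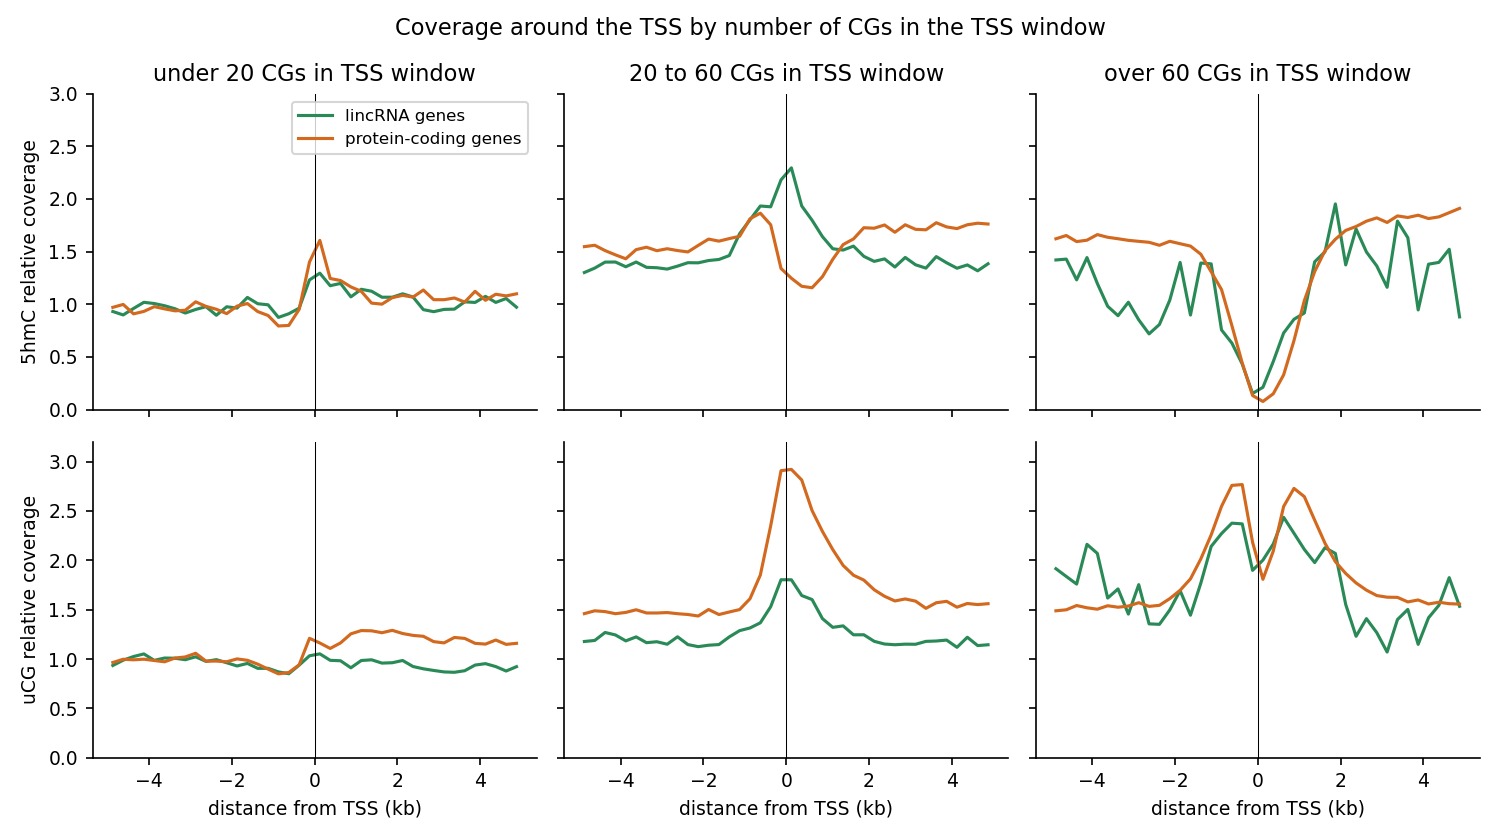
Relative coverage (y axis) of 5hmC at 500 ng (top) and uCG at 300 ng (bottom), averaged over replicates, in 250-bp bins from 5 kb before to 5 kb after the start (x axis), for lincRNA genes without the 3 at the 45S unit (green) and protein-coding genes (orange) with under 20, 20 to 60 and over 60 CGs in the TSS window. The green line peaks at 2.29 in the middle 5hmC panel, where the orange line dips, and both dip to under 0.25 in the right 5hmC panel.

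Across genes with at least 10 CGs in the TSS window, the Spearman correlation of 5hmC with uCG coverage was 0.58 in 3312 lincRNA genes and -0.01 in 17847 protein-coding genes, and that of 5hmC coverage with the number of CGs was 0.30 and -0.57. These are descriptions across genes, which share libraries, base composition and the ease of mapping. Among 1525 lincRNA genes with at least 20 CGs in the window, 80 (5.25%) had 5hmC of at most 0.5 with uCG of at least 2, against 6078 of 15060 protein-coding genes (40.4%). In 252 (16.5%) both marks were at least 2, against 1286 (8.54%). Neither these shares nor the correlations were split by the number of CGs, whose range differed between the kinds of gene. Of the 1525 lincRNA genes 89 were in the CG-dense class, against 8635 of the 15060 protein-coding genes. In that class 5hmC at 500 ng was 0.372 in lincRNA windows without the genes at the 45S unit and 0.282 in protein-coding ones. The part of the CG number in these contrasts was not tested.

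Each gene was then compared with itself, the TSS window against the rest of the body, by the quasi-likelihood test of edgeR over the 500-ng and 50-ng libraries. 5hmC differed in 1735 of 3355 lincRNA genes tested, at a background of 75% of all 21025 genes tested. It was higher in the window in 1062 (31.7%, background 18.5%) and lower in 673 (20.1%, background 56.4%). The median log2 difference was 0.15 in lincRNA genes, -1.75 in protein-coding genes and -1.32 in all genes tested. In uCG 1382 of 3497 lincRNA genes differed (background 66.9%), of which 925 were higher (background 54.8%) and 457 lower (background 12.1%), with a median of 0.16 against 0.55 in all genes tested. The share called was thus below the background in both marks, where fewer CGs per lincRNA gene also give fewer reads, whose part was not tested. Among the lincRNA genes called in 5hmC, more were higher at the start than lower, and among all genes called, more were lower. The test was not split by the number of CGs in the window, which differed between the kinds of gene.

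Rmst, which acts in neurogenesis, had the 5hmC of its start far above that of its body. Its body had a 5hmC coverage of 0.307 and 0.325 at 500 ng and its TSS window of 3.22 and 3.17. The log2 difference of its window from the rest of the body was 3.54 ± 0.26 (SE; edgeR adjusted p = 5.1e-07). Neat1, the scaffold of nuclear paraspeckles, had the reverse, with 2.53 and 2.51 in the body and 0.120 and 0.245 in the window, a log2 difference of -4.05 ± 0.35 (edgeR adjusted p = 1.5e-06). In uCG the Neat1 window had 3.48, 3.85 and 3.37 and the body 2.39, 2.32 and 2.27, so the window was higher there, by 0.66 ± 0.10 (edgeR adjusted p = 2.8e-07). Malat1, an abundant nuclear transcript, had 0.654 and 0.688 of 5hmC in the body and 0.114 and 0.161 in the window, and its difference was -2.53 ± 0.46 (edgeR adjusted p = 0.00041). In these 3 genes no 500-ng replicate of the window overlapped one of the body. At 5 ng the 12 CGs of the Rmst window held 10 and 0 reads.

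CGs of lincRNA gene bodies near protein-coding genes had more of both marks than those far from them. Each CG was placed by its own distance, so a long gene can enter several ranges. Body CGs 2 to 10 kb from the nearest protein-coding gene had a 5hmC coverage of 1.57, and those at 10 to 50 kb 1.33. Those at 50 to 200 kb had 1.01 (0.940 without the genes at the 45S unit) and those over 200 kb away 0.463. CGs outside lincRNA genes at the same distances had 1.18, 0.973, 0.667 and 0.315. At each distance the pooled body CGs were thus above the other CGs of the same range, by 1.32-, 1.36-, 1.41- and 1.47-fold without the 45S genes. In uCG the body CGs had 1.52, 1.11, 0.839 and 0.574 without these genes. The other CGs had 1.04, 0.854, 0.683 and 0.473, and the body CGs lay above them by 1.46-, 1.30-, 1.23- and 1.21-fold. The values fell with distance in both marks, within and outside lincRNA genes.

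**Figure D3:**
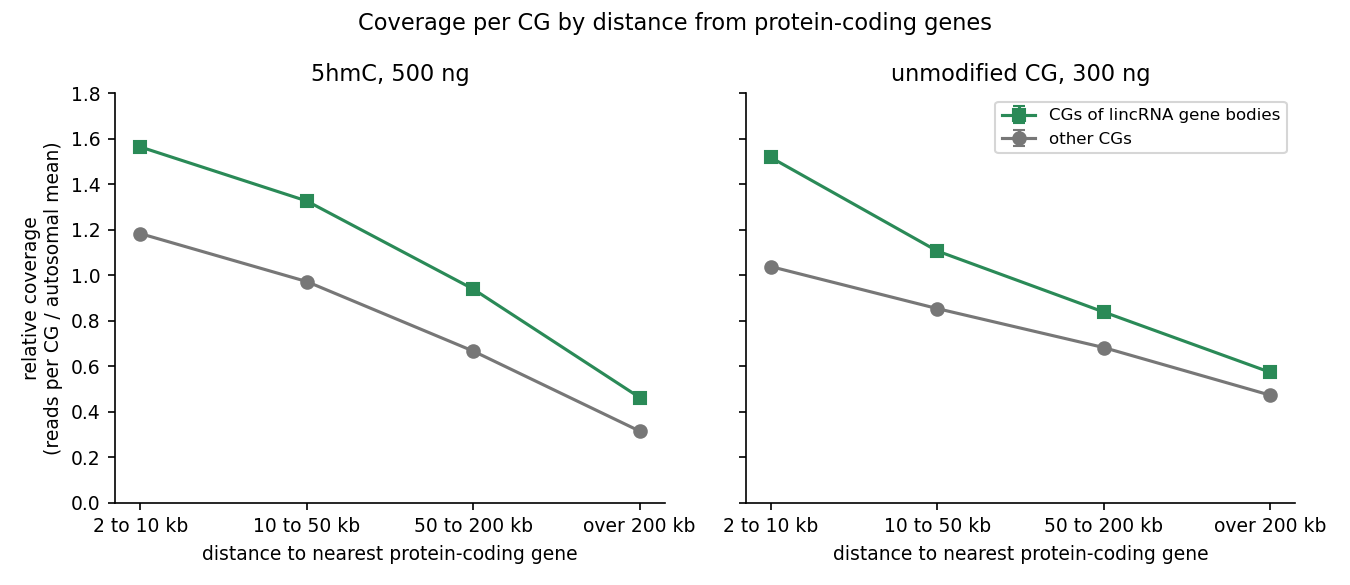
Relative coverage (y axis) of 5hmC at 500 ng (left) and uCG at 300 ng (right) by distance to the nearest protein-coding gene (x axis), for CGs in lincRNA gene bodies without the 3 genes at the 45S unit (green squares) and CGs outside them (grey circles). Points are means over replicates, and bars from the lowest to the highest replicate are smaller than the points. In 5hmC the green points go from 1.57 to 0.463 and stay above the grey ones, which go from 1.18 to 0.315.

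Coverage of a body also went with that of its own flanks, the CGs 2 to 20 kb outside the gene. Their Spearman correlation was 0.72 in 5hmC and 0.70 in uCG across 3525 lincRNA genes with at least 20 CGs in both, a description over neighbouring sequence in the same libraries. Set against the flanks gene by gene, 5hmC differed in 2426 of 3873 lincRNA genes (background 68.8%), being higher in 1313 bodies (background 34.9%) and lower in 1113 (background 33.9%), with a median log2 difference of 0.07 against 0.01 in all genes tested. uCG differed in 1992 of 3870 (background 65.2%), higher in 1166 (background 48.1%) and lower in 826 (background 17%), with a median of 0.07 against 0.28. The median difference of lincRNA bodies from their flanks was thus small in both marks, with genes on both sides. Single bodies often differed, in 62.6% of the lincRNA genes tested in 5hmC and 51.5% in uCG.

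Longer lincRNA genes had lower coverage. The median 5hmC coverage of the body was 1.14 in 921 genes under 5 kb, 0.897 in 1516 of 5 to 20 kb, 0.558 in 995 of 20 to 100 kb and 0.393 in 184 over 100 kb, among genes with at least 20 CGs. Protein-coding genes of these lengths had medians of 0.970, 1.16, 1.08 and 0.823. The median distance of the lincRNA genes to a protein-coding gene was 39.3, 50.9, 91.3 and 128 kb in the same order, so length and distance moved together, and the part of each was not tested.

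Pooled exons of lincRNA genes had more 5hmC than pooled introns, but the median of the differences within genes was small, with genes on both sides. Of 2342 lincRNA genes with both parts covered, exons and introns outside the TSS window differed in 1073 (background 63.2% of 18951 genes), with exons higher in 651 (27.8%, background 48.5%) and lower in 422 (18.02%, background 14.7%). The median log2 difference was 0.11 in lincRNA genes, 0.45 in protein-coding genes and 0.42 in all genes tested. Pvt1, which lies beside Myc, had less 5hmC in exons than in introns, by -0.76 ± 0.08 in log2 (edgeR adjusted p = 5.9e-06). Miat, first described in myocardial infarction, had more, by 0.80 ± 0.10 (edgeR adjusted p = 1.4e-05), and Rmst by 1.56 ± 0.19 (edgeR adjusted p = 1.5e-05).

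The share of 5hmC reads a gene took at 500 ng was also compared with its share of uCG reads. Among 3817 lincRNA genes tested 2485 differed (background 78% of 22894 genes), 1470 with more 5hmC (38.5%, background 38.1%) and 1015 with more uCG (26.6%, background 40%). Protein-coding genes had more 5hmC in 38.0% and more uCG in 42.6%. Scaling by library totals in place of TMM moved the split of lincRNA genes to 1203 and 1234, and the median of all genes from -0.02 to -0.19 in log2, so the excess of genes with more 5hmC was seen with TMM and, at 1333 against 860, with DESeq2, but not with library totals. The median of lincRNA genes was 0.15 with TMM and -0.01 with library totals, above that of all genes tested under both.

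The 3 lincRNA genes with the largest difference in each direction, among those called with at least 50 CGs, are given as a description. The largest were toward uCG. B930059L03Rik had a 5hmC coverage of 0.0392 and 0.0133 and a uCG coverage of 3.25, 4.07 and 2.98, a log2 difference of -6.81 ± 0.27 (SE). Rncr4, a retinal noncoding RNA gene, had 0.0453 and 0.0126 against 3.21, 3.45 and 3.38, and its difference was -6.65 ± 0.21. Gm11527, whose start is shown above, had 0.0609 and 0.0372 against 4.27, 3.76 and 4.06, and its difference was -6.15 ± 0.29. These 3 bodies lay 7.45, 19.4 and 6.77 kb from a protein-coding gene and had 5hmC near 0 beside uCG above 2.9 in every library. Toward 5hmC the largest differences were in 1700110I01Rik, Gm30948 and Gm49357, at 4.94, 4.74 and 4.24, but their 5hmC coverage was only 0.0419 to 0.219 and their uCG coverage at most 0.0148, so these rest on 0 to 12 uCG reads per library. Their 5hmC reads at 500 ng were 28 and 30, 40 and 32, and 210 and 191.

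**Figure D4:**
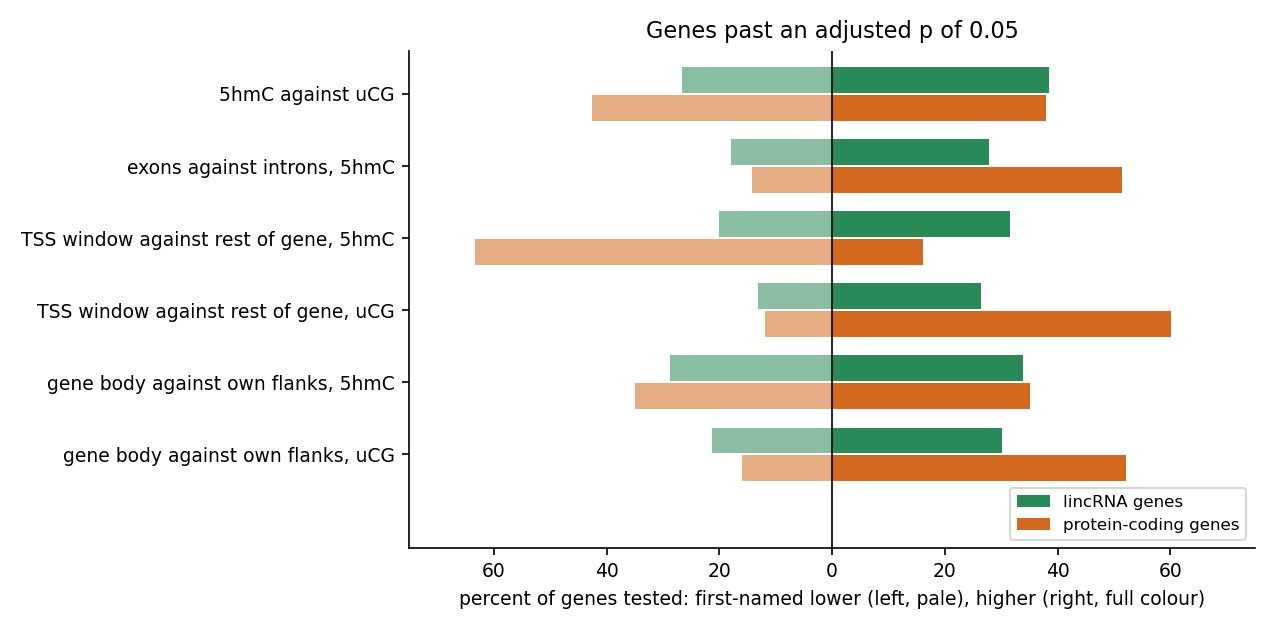
Percent of genes tested (x axis) that passed an adjusted p of 0.05 in 6 comparisons (rows), for lincRNA genes (green) and protein-coding genes (orange), with the first-named part or mark higher to the right (full colour) and lower to the left (pale). For the 5hmC of the TSS window against the rest of the gene, lincRNA genes reach 31.7% higher and 20.1% lower, and protein-coding genes 16.0% and 63.3%.

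Known lincRNA genes were described in 5 lists. The 3 imprinted genes had more 5hmC than uCG, and all 3 passed the test in that direction (background 38.1%), also with library totals. H19, a maternally expressed gene that restrains growth, had a 5hmC coverage of 2.13 and 2.66 and a uCG coverage of 0.695, 0.517 and 0.592, a log2 difference of 2.14 ± 0.19 (edgeR adjusted p = 1.6e-13). Meg3, a maternally expressed gene of the Dlk1 domain, had 1.94 in both replicates against 1.04, 0.979 and 1.06, with a difference of 1.09 ± 0.07 (edgeR adjusted p = 3.3e-18). Mirg, a microRNA host in the same domain, had 1.54 and 1.72 against 0.680, 0.605 and 0.733, with a difference of 1.44 ± 0.10 (edgeR adjusted p = 1e-16). In none of the 3 did the replicates of the marks overlap. The start of Meg3 went the other way, with 0.545 and 0.400 of 5hmC and 1.60, 2.17 and 2.18 of uCG.

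Of the 8 genes listed by symbol as hosts of small RNAs, 7 had more uCG (background 40%, or 26.6% of lincRNA genes). The other, 1 gene, had more 5hmC (background 38.1%, or 38.5% of lincRNA genes). The symbols used do not find every host. Mirg, the microRNA host of the imprinted list, is not among the 8 and had more 5hmC. Snhg20, host of a small nucleolar RNA, had the largest difference, with 0.561 and 0.614 of 5hmC and 4.23, 3.96 and 3.43 of uCG, or -2.56 ± 0.13 in log2 (edgeR adjusted p = 5.9e-21). The other 6 with more uCG were Mir17hg at -1.57, Mir142hg at -1.56, Mir124a-1hg at -1.43, Mir155hg at -0.94, Mir124-2hg at -0.79 and Mir670hg at -0.58. Mir9-3hg, host of a neural microRNA, was at 0.20 ± 0.05 with more 5hmC under TMM, and at 0.036 ± 0.048 with library totals (edgeR adjusted p = 0.50). The start of Mir17hg, with 88 CGs, had 0.0144 and 0.0220 of 5hmC and 0.811, 1.01 and 0.830 of uCG.

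Of 6 abundant or widely studied lincRNA genes, all 6 had less 5hmC in the TSS window than in the rest of the gene. The background was 56.4% of all genes tested and 20.1% of lincRNA genes tested. Body 5hmC ranged from 0.671 in Malat1 to 3.35 in Trp53cor1, a target of p53. Malat1 had more uCG than 5hmC, with 3.73, 3.83 and 3.97 of uCG and a difference of -2.35 ± 0.13 (edgeR adjusted p = 9.6e-20). Lncpint, at 0.50 ± 0.04, Pvt1, at 0.47 ± 0.03, Neat1, at 0.28 ± 0.06, and Trp53cor1, at 0.24 ± 0.05, had more 5hmC under TMM, and Miat was at 0.10 ± 0.06 (edgeR adjusted p = 0.14). With library totals Neat1, at 0.12 ± 0.06 (edgeR adjusted p = 0.092), and Trp53cor1, at 0.077 ± 0.055 (edgeR adjusted p = 0.20), no longer passed.

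The list drawn up as genes beside developmental regulators held Hotair and Halr1, at Hox clusters, and Carmn and Rmst, whose neighbouring genes were not identified. These 4 genes had the opposite pattern at the start. Here 4 of 4 had more 5hmC in the TSS window than in the rest of the gene (background 18.5%, or 31.7% of lincRNA genes). Hotair, in the Hoxc cluster, had 6.12 and 5.13 in the window and 3.12 and 2.77 in the body. Its log2 difference, of the window from the rest of the gene as in those that follow, was 1.20 ± 0.17 (edgeR adjusted p = 7.5e-05). Carmn, known from heart and smooth muscle, had 5.53 and 5.81 against 2.69 and 2.76, a difference of 1.29 ± 0.15 (edgeR adjusted p = 1.5e-05). Halr1, beside the Hoxa cluster, had 2.37 and 2.83 against 1.37 and 1.25, a difference of 0.93 ± 0.20 (edgeR adjusted p = 0.0011). With Rmst, described above, the window lay above the body in every 500-ng replicate of the 4 genes. In uCG the window was higher in 2 of 4 (background 54.8%, or 26.5% of lincRNA genes). These were Hotair by 0.76 ± 0.27 (edgeR adjusted p = 0.013) and Carmn by 0.64 ± 0.19 (edgeR adjusted p = 0.0038).

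The list of pluripotency-associated genes held Lncenc1, a gene that supports the naive state, and 18 Platr genes, named for their expression in pluripotent cells. Their median body coverage was 1.54 in 5hmC and 2.03 in uCG, against 0.763 and 0.799 over all lincRNA genes. Of 16 tested 6 had more 5hmC (background 38.1%) and 5 more uCG (background 40%), shares near or below the background, and with library totals 4 and 7. Lncenc1 had 1.93 and 1.91 of 5hmC and 2.27, 2.38 and 2.25 of uCG in the body, and its TSS window had 4.45, 4.25 and 5.34 of uCG, above the rest of the gene by 1.02 ± 0.11 (edgeR adjusted p = 1e-10). Platr22 had 1.58 and 1.64 of 5hmC in the body and 0.0679 and 0.231 in the window. Its window differed from the rest of the gene by -3.71 ± 0.39 (edgeR adjusted p = 5.7e-06). Platr6 had 2.64 and 2.80 in the body and 2.20 and 2.36 in the window (-0.08 ± 0.21 against the rest of the gene, edgeR adjusted p = 0.73). Platr28 was low in both marks, with 0.406 and 0.394 of 5hmC and 0.446, 0.489 and 0.430 of uCG. Platr2, Platr13, Platr15 and Platr30, named here after their values were seen, had at most 0.110 of 5hmC in a 500-ng replicate and at most 0.0447 of uCG in any replicate, so neither body mark was read there beyond this level, whereas the TSS windows of Platr2 and Platr30 reached 0.685 and 0.888 of 5hmC.

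**Figure D5:**
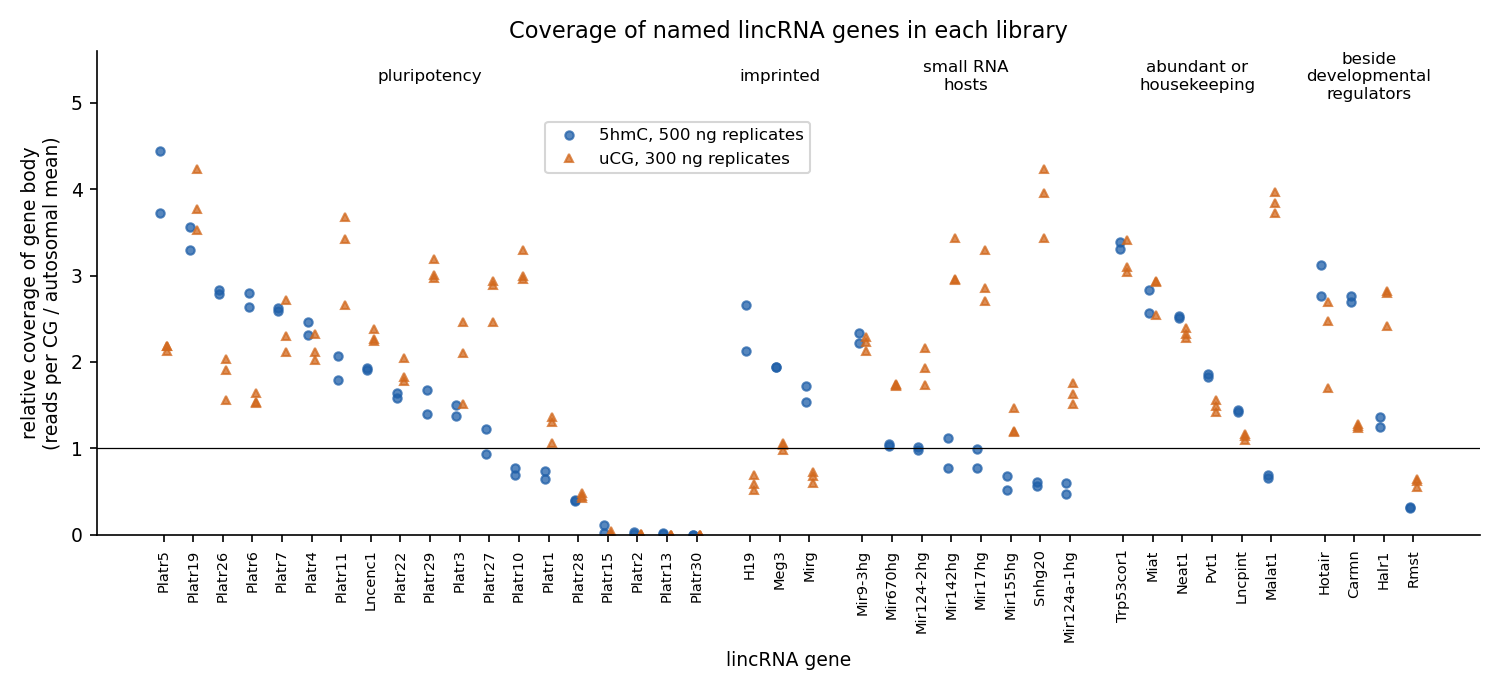
Relative coverage of the gene body (y axis) in each 500-ng replicate of 5hmC (blue circles) and each replicate of uCG (orange triangles) for the 40 lincRNA genes of the 5 lists (x axis), ordered within a list by 5hmC. The 3 imprinted genes lie with 5hmC above uCG, and Snhg20 and Malat1 with 5hmC under 0.7 and uCG above 3.4.

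Outside the 45S unit the highest 5hmC among lincRNA genes with at least 50 CGs was in AC127690.2, with a body coverage of 7.19 and 6.65 and a uCG coverage of 2.60, 2.36 and 2.70. It lay 128 kb from a protein-coding gene and its flanks had a 5hmC coverage of 2.68. Gm14235, Gm36325, Gm40773 and Gm20052 followed at 5.16 ± 0.65, 5.06 ± 0.38, 4.55 ± 0.13 and 4.53 ± 0.083 (SD, n = 2). In this order the first of these 4 differed from the second, and the third from the fourth, by less than the SD. Their flanks had 1.26 to 2.62. Among starts with at least 20 CGs, the highest 5hmC outside the 45S unit was in Gm2044, whose TSS window had 11.7 and 10.4 of 5hmC and 4.40, 2.65 and 4.03 of uCG. The highest uCG among these starts was in Gm47972, with 5.05, 4.97 and 6.48, beside 3.55 and 3.92 of 5hmC. At the other end, 2410018L13Rik, 4930442J19Rik, Gm17514 and Gm26806 had 0 reads of 5hmC in both 500-ng replicates over 466, 75, 146 and 73 CGs. Their uCG coverage was at most 0.00705, so the absence of 5hmC reads there came with an absence of uCG reads, and the part of mapping in it was not tested.

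The lower inputs were compared with 500 ng gene by gene. At 50 ng against 500 ng 0 of 3659 lincRNA genes passed the edgeR test (background 0.00455%), 282 had an unadjusted p under 0.05 and DESeq2 called 2, 5330413P13Rik and Gm41335, both higher at 50 ng by 0.42 ± 0.11 and 0.33 ± 0.08 in log2. At 5 ng against 500 ng 0 of 3595 passed (background 0%), 317 had an unadjusted p under 0.05, and DESeq2 called 114, with 79 higher and 35 lower at 5 ng. The median log2 difference of lincRNA genes was 0.05 and 0.07, against 0.00 and 0.01 in all genes tested. With 1 library of the lower input left out the counts went to 335 and 442 at 50 ng and to 2136 and 2006 at 5 ng, where the lone library is assumed to vary like the 500-ng pair. The Spearman correlation of body 5hmC with that at 500 ng, across 3616 lincRNA genes with at least 20 CGs, was 0.97 at 50 ng and 0.85 at 5 ng. H19 had 3.35 and 2.38 at 50 ng and 1.62 and 1.57 at 5 ng beside 2.13 and 2.66 at 500 ng, and Platr5, with 8 CGs in its body, had 4.59 and 4.44, then 18.2 and 15.4, beside 3.72 and 4.44.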

How the data were processed

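The authors mapped hmTOP-seq reads to mm10 with a filter on mapping quality, removed reads of the same start and length as duplicates, and deposited raw read counts per CG with no normalization. The aligner is not given in the sources used here. Reads of repeated sequence can be lost to the mapping filter, which lowers both marks there, and distinct molecules of equal start and length count once. 5hmC counts came with strands merged, and uCG counts were summed over strands here. Gene models were those of GENCODE M21. All 15 library columns were used.

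CGs of a gene were assigned without overlap to the TSS window (1 kb before to 0.5 kb after the start), exons, introns and 2 kb downstream, in that order. Relative coverage is reads per CG over the autosomal mean of the library. Means and SDs are over replicates. Tests were edgeR 4.0.16 quasi-likelihood fits in R 4.3.3 on all autosomal protein-coding genes and lincRNA genes with a mean of at least 10 reads, adjusted by Benjamini-Hochberg over all genes tested at a threshold of 0.05. Library comparisons used TMM. Part comparisons used library totals times CGs as offset with library as a block, and at least 5 CGs per part (10 for bodies and flanks). DESeq2 1.42.0, library totals, no filter, a replicate block and leaving out each library were alternatives, and scripts were tested on simulated data. Intervals and SDs cover counting and technical error only.

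The lincRNA genes and the lists were chosen with earlier results of these data known. Genes were named by rule: the 3 called genes with at least 50 CGs that had the largest difference in each direction between libraries, the 8 highest and 4 lowest bodies in 5hmC (at least 50 CGs), the 4 highest starts in each mark (at least 20 CGs), and all 40 genes of 5 lists, of which examples are given where a list is long.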

Additional observations from a re-analysis of the deposited data

Results flagged for a closer look

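Set against protein-coding genes, the pooled TSS window of lincRNA genes lay on opposite sides in the marks in every library. The log2 ratio averaged 1.51 over 6 5hmC libraries and -0.30 over 3 uCG libraries, and without the 3 genes at the 45S unit 1.36 and -0.65. These ratios pool genes of unlike CG number. Without the 3 genes, the 2722 lincRNA genes with under 20 CGs in the window were lower than protein-coding genes in both marks, at 1.10 against 1.18 in 5hmC and 0.964 against 1.04 in uCG. With 20 to 60 CGs 5hmC was higher, at 2.04 against 1.41, and uCG lower, at 1.62 against 2.63. With over 60 CGs 5hmC was 0.372 against 0.282 and uCG 2.14 against 2.15. Exons also went opposite ways, at -0.27 in 5hmC and 0.22 in uCG, but without the 3 genes the uCG ratio was -0.41, on the same side as 5hmC. The differences between the marks were not tested.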

How the results depend on the processing

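The log2 ratios of lincRNA to protein-coding genes (bodies against intergenic CGs) are given under each alternative in the order TSS window, exons, introns, downstream and body. Outside soft-masked sequence 5hmC gave 1.60, -0.31, -0.39 and, for the body, 0.80, and uCG -0.19, 0.31, -0.35, -0.25 and 0.54. Counting each CG as read only if read in every replicate gave 1.53, -0.41, -0.52, -0.37 and 1.04 in 5hmC and -0.41, 0.40, -0.67, -0.38 and 1.20 in uCG. Medians over genes gave -0.74, -0.63, -0.74 and 0.64 from exons on in 5hmC, and -1.20, -0.52, -0.60, -0.40 and 0.47 in uCG, where exons turned. Exons with their part of the TSS window gave 0.066 in 5hmC, which turned, and 0.34 in uCG. Without the 3 genes at the 45S unit, an alternative chosen after seeing the data, the TSS window, exons and body had 1.33, -0.53 and 0.86 in 5hmC and -0.65, -0.41 and 0.53 in uCG, where exons turned. Also without these genes, exons with their part of the TSS window had -0.18 in 5hmC and -0.39 in uCG, exons outside soft-masked sequence -0.49 and -0.36, and those by CGs read in every replicate -0.60 and -0.61, so each exon ratio above 0 in these settings rests on the 3 genes. The cause of the turn in the median over genes was not tested. The other ratios kept their direction. At 50 ng against 500 ng DESeq2 called 2 lincRNA genes, and leaving out 1 library gave 0 to 442. At 5 ng DESeq2 called 114, and leaving out 1 library gave 0 to 2136. By library totals Mir9-3hg, Neat1, Trp53cor1, Platr4 and Platr7 lost their call for more 5hmC than uCG. With a replicate block 4 were called at 50 ng (5330413P13Rik, Gm45321 and Gm41335 higher, 1700074H08Rik lower) and 0 at 5 ng. Same-numbered replicates correlated at 0.03 and 0.01 after removal of group means, so the numbers were not taken as pairs. Counts of the other comparisons stayed within 1.5 times. Reads per CG averaged 0.722 to 1.58 in hmTOP-seq, so short genes and single CGs rest on few reads.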
